A study of Mus musculus with 12 samples.

Results

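The genes described here encode the proteasome, the activators and the inhibitor that bind it, and the chaperones that build it. They were taken by symbol: every gene on the array whose symbol starts with Psma, Psmb, Psmc, Psmd, Psme, Psmf or Psmg followed by a number, with 1 probe set for each gene. The rule found 48 genes among the 12393 that the array measured with a probe set of a single symbol. Of these, 46 are proteasome parts: 8 of the alpha ring, 7 of the beta ring, 3 immunoproteasome subunits, 6 ATPases and 11 other subunits of the cap, 4 activators or inhibitors and 7 assembly chaperones. The other 2, Psmc3ip and Psme3ip1, carry such a symbol because their proteins bind another protein, and they were kept out of every count. Psmc3ip lay between 6.63 and 6.91 and Psme3ip1 between 8.10 and 8.52 on the log2 scale over all arrays, and neither passed the test in any comparison.

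RNA came from the jejunum, taken as the middle of 3 equal lengths of the small intestine, of male C57BL/6 mice aged 6 to 8 weeks. The mice were wild-type or POR-null, that is, lacking cytochrome P450 reductase, the enzyme that supplies electrons to microsomal cytochromes P450. The labels do not say in which tissues the gene was deleted, and the genotype was not checked on the deleted gene, which was not analysed here. All mice ate a soya-free powdered diet for 14 days. They then stayed on it (the control groups) or received it with quercetin, a flavonol of many food plants, at 6.2 g per kg of diet or 7 mg per mouse, and tissue was taken after 24 hours. The 4 groups, wild-type control, wild-type quercetin, POR-null control and POR-null quercetin, each had 3 arrays. Each array held scraped epithelium pooled from 3 mice, so every group has n = 3 pools, the spread is between pools and not between mice, and their number limits the precision. Values are deposited log2 intensities, so a difference of 1 is a doubling, and levels of different genes cannot be set against each other because their probes differ. In bulk RNA, fewer cells of a type and less RNA per cell cannot be told apart.

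The proteasome is the barrel-shaped protease that degrades proteins tagged with ubiquitin in the cytosol and nucleus. Outer alpha rings gate the barrel, inner beta rings carry the cutting sites, and a cap of ATPases and other subunits recognises, unfolds and feeds in the substrate. Under interferon gamma, cells replace the catalytic beta subunits with immunoproteasome subunits, whose peptides the TAP transporter carries to MHC class I molecules. In many cell types the transcription factors NRF1 and NRF2 can raise proteasome genes, through antioxidant response elements in their promoters, and quercetin is often described as an activator of NRF2.

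The immunoproteasome subunits and the TAP transporter are neighbours in the mouse MHC region. In the RefSeq annotation of GRCm38.p6, Psmb9 (chr17:34182030-34187330) and Tap1 (chr17:34187556-34197225) start back to back, and Psmb8 (chr17:34198195-34201454) and Tap2 (chr17:34204479-34216321) lie beyond Tap1. Psmb10 lies elsewhere, at chr8:105935728-105938392. The stretch of 225 bases between the starts of Psmb9 and Tap1 (chr17:34187331-34187555, minus strand, written towards Psmb9) is shown because the levels of both genes are set against each other below. Capitals mark its single GC box, GGGCGG.

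Psmb9 to Tap1: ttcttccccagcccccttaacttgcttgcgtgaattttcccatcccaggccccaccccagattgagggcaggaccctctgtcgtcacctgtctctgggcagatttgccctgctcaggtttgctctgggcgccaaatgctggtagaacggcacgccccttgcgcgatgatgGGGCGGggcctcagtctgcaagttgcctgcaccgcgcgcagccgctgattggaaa

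A GC box in either direction was found in the 250 bases before the start of 21 of the 38 parts that the RefSeq promoter table held, and of 35.4% of its 27025 genes. For 3 response motifs the search covered the same window on both strands. The antioxidant response element core, TGACNNNGC, was present in 5 of the 38 parts (13.2%) and in 11.5% of all genes. The core of the interferon-stimulated response element was present in 3 parts (Psmb3, Psmd4 and Psmd9) and in 3.46% of all genes. The interferon gamma-activated site, TTCNNNGAA, was present in 2 parts (Psmb8 and Psmg1) and in 8.13% of all genes. None of the 3 was found between Psmb9 and Tap1, which says only that these letters are not in that stretch. The 5 matches to the antioxidant core and the match of Psmb8 are printed with up to 20 bases on each side, in the direction of the gene, with the motif in capitals. They show which subunit promoters carry the letters, and a match is a description, not a binding site. The parts with no entry in the promoter table were Psma8, Psmb1, Psmb2, Psmb7, Psmc3, Psmd3, Psmd7 and Psmg2.

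Psmb5 (chr14:54618014-54618062, minus strand): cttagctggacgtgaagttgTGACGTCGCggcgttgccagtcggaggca
Psmb6 (chr11:70525328-70525356, plus strand): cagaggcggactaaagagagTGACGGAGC
Psmc6 (chr14:45329577-45329625, plus strand): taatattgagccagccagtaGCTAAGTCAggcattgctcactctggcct
Psmd12 (chr11:107479278-107479309, plus strand): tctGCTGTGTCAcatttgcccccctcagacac
Psmd9 (chr5:123228139-123228187, plus strand): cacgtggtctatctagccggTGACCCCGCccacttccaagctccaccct
Psmb8 (chr17:34198078-34198126, plus strand): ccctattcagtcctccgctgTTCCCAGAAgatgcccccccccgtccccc

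Across the series, array medians lay between 5.94 and 6.01 and no 2 arrays held the same value in more than 2.84% of probe sets. The 10 measured enterocyte markers were all present, at log2 levels of 9.44 to 13.97. Smooth muscle markers, all 10 measured, differed between pools of a group. Their score, the mean log2 deviation from the 12-array mean, ran from -0.34 to 0.93 in wild-type control, -0.23 to 0.06 in wild-type quercetin, -0.27 to 0.59 in POR-null control and -0.25 to 0.26 in POR-null quercetin. Markers of the distal small intestine, 9 measured, scored -0.52 to 0.13, 0.01 to 0.70, -0.02 to 0.21 and -0.29 to -0.03 in the same order, so they were higher in wild-type quercetin than in POR-null quercetin. With the distal minus proximal score as a covariate, 0 of the 46 parts passed the test in each comparison.

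No proteasome part passed the test in any comparison. Differences were tested with limma over 22626 probe sets, and a probe set was called at a Benjamini-Hochberg adjusted p under 0.05. Quercetin in wild-type mice called 0 of the 46 parts, against 0.0133% of all probe sets, and the average of the quercetin effects over both genotypes called 0 of 46, against 0.00884%. Quercetin in POR-null mice, genotype on either diet, their interaction and the average genotype effect called 0 of 46 parts and 0% of probe sets. The lowest adjusted p of any part in limma was 0.676, for quercetin in wild-type mice.

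Without adjustment the count was also 0 of 46 at p under 0.05 in each of the 7 comparisons. The share of all probe sets under that p was 8.72% for quercetin in wild-type mice, 4.02% for quercetin in POR-null mice, 6.09% for genotype on the control diet, 3.88% for genotype on quercetin, 5.04% for the interaction, 7.82% for the average quercetin effect and 5.01% for the average genotype effect. The confidence intervals describe each gene's chosen probe set taken singly. They are not adjusted for the number of parts or comparisons, so they do not bound what the arrays could have missed. The 95% confidence interval lay within 0.5 log2 units of 0, which is 1.41-fold either way, for 45 of 46 parts under quercetin in wild-type mice, for 45 under quercetin in POR-null mice, for all 46 by genotype on the control diet and for 45 by genotype on quercetin. The part outside that band in those comparisons was Psmd7. In the interaction 40 of 46 intervals lay within it, the others being Psma5, Psmb9, Psmd2, Psmd5, Psmd7 and Psmg1. These counts hold for the probe set used for each gene. Some dimmer probe sets had intervals beyond the band, among them those named here. For Psmd6 they were -0.93 to -0.40 by genotype on quercetin and -0.59 to -0.06 by genotype on the control diet. Under quercetin in POR-null mice they were -0.62 to -0.10 for Psmd6 and 0.07 to 0.61 for Psmd11. For Psme3 the interval was 0.04 to 0.54 under quercetin in wild-type mice. In the interaction they were -0.73 to -0.03 for Psme3, 0.02 to 0.79 for Psmd11 and -0.60 to -0.01 for Psmc6.

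**Figure D1:**
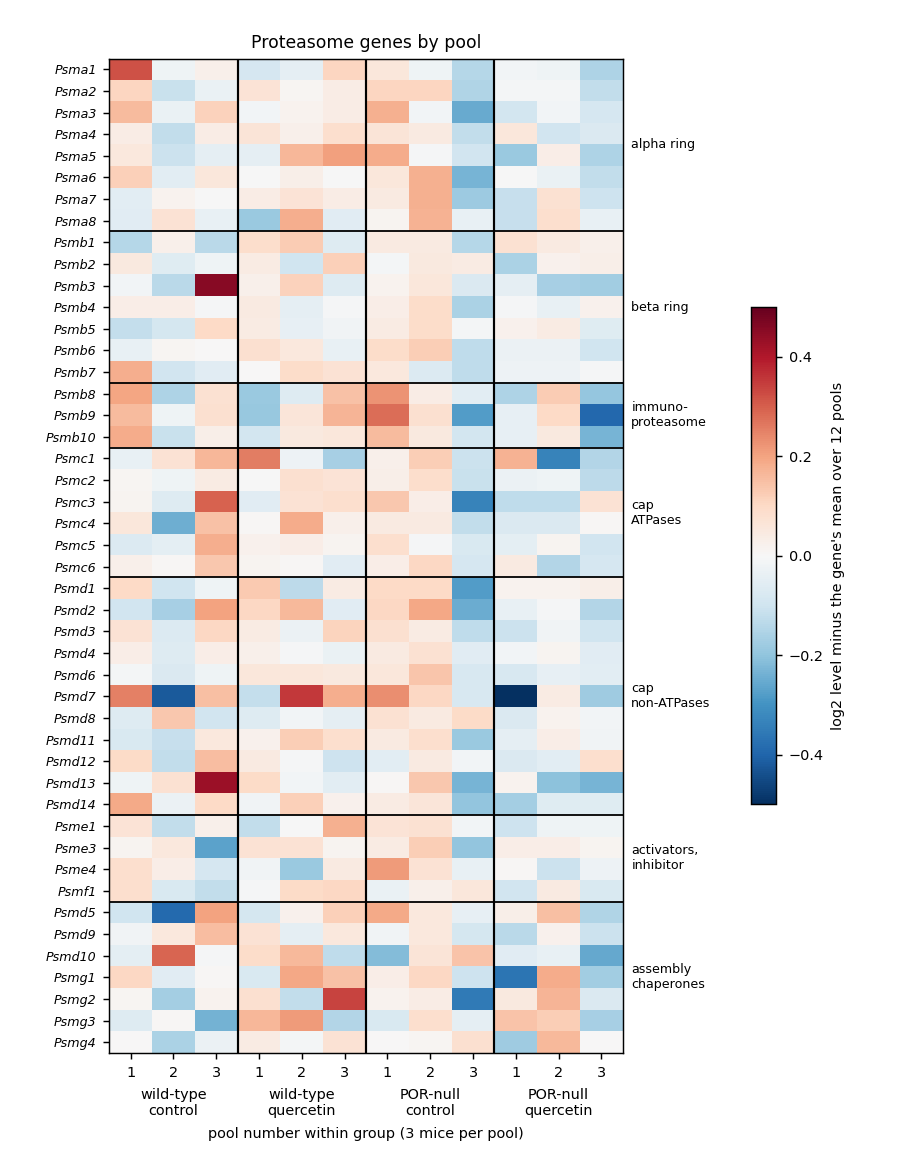
Log2 level of each of the 46 proteasome parts (rows, grouped by role) in each of the 12 pools (columns, grouped by genotype and diet), as the difference from the gene's mean over the pools. Pool 3 of the POR-null control group is blue in most rows of both rings and of the cap, and no group of 3 columns has 1 colour throughout.

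The alpha ring, which forms the outer gate, gave 4 parts higher and 4 lower under quercetin in wild-type mice (median difference 0.02). Under quercetin in POR-null mice all 8 were lower, with a median of -0.06, and by genotype on quercetin all 8 were lower, with a median of -0.08. Psma5 had the smallest p of any part by genotype on quercetin. Its log2 level was 8.75, 8.59 and 8.65 in the wild-type control pools, 8.65, 8.86 and 8.90 in wild-type quercetin, 8.88, 8.69 and 8.60 in POR-null control and 8.51, 8.73 and 8.54 in POR-null quercetin. The ranges of the 4 groups overlap, and on quercetin 1 of the 3 POR-null pools lies above the lowest wild-type pool. The POR-null minus wild-type difference on quercetin was -0.21 ± 0.10 (SE, n = 3 pools in each group; limma adjusted p = 0.997), and the interaction was -0.27 ± 0.14 (limma adjusted p = 0.956).

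Psma1 was the alpha subunit with the largest genotype difference on the control diet. The wild-type control pools read 7.94, 7.60 and 7.65, the wild-type quercetin pools 7.54, 7.58 and 7.73, the POR-null control pools 7.68, 7.60 and 7.48 and the POR-null quercetin pools 7.61, 7.60 and 7.47. Wild-type control pool 1 stands above every other pool. POR-null minus wild-type on the control diet was -0.14 ± 0.10 (SE; limma adjusted p = 0.862). Psma8, the testis form of an alpha subunit, was between 4.18 and 4.55 in all 12 pools and was the only part whose mean lay under the 25th percentile of probe sets, 4.81.

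The beta ring holds the catalytic subunits Psmb5, Psmb6 and Psmb7, with chymotrypsin-like, caspase-like and trypsin-like activity respectively, and 4 structural ones. Psmb5, whose upstream sequence holds the antioxidant core, read 8.41, 8.44 and 8.63 in wild-type control, 8.57, 8.49 and 8.51 in wild-type quercetin, 8.57, 8.62 and 8.52 in POR-null control and 8.55, 8.57 and 8.47 in POR-null quercetin. Psmb6, which also holds it, read 8.57, 8.62 and 8.61, then 8.69, 8.66 and 8.57, then 8.70, 8.73 and 8.48, then 8.58, 8.58 and 8.51 in the same order of groups. The quercetin groups overlapped their controls for both genes. Quercetin minus control in wild-type mice was 0.03 ± 0.08 for Psmb5 and 0.04 ± 0.08 for Psmb6 (SE), with 95% confidence intervals of -0.14 to 0.20 and -0.13 to 0.21. Psmb7 read 9.54, 9.26 and 9.30, then 9.36, 9.45 and 9.43, then 9.41, 9.29 and 9.23, then 9.33, 9.33 and 9.35, and its wild-type quercetin difference was 0.05 ± 0.09 (SE).

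Of the structural beta subunits, Psmb1 had the smallest p under quercetin in wild-type mice and in the average quercetin effect. Its level was 9.30, 9.47 and 9.31 in wild-type control and 9.53, 9.57 and 9.38 in wild-type quercetin, with 9.49, 9.49 and 9.30 in POR-null control and 9.52, 9.49 and 9.47 in POR-null quercetin. The average quercetin effect was 0.10 ± 0.06 (SE, 6 pools against 6; limma adjusted p = 0.713). Psmb3 was the beta subunit with the largest genotype difference, an average of -0.13 ± 0.09 (SE; limma adjusted p = 0.996), and its wild-type control pool 3, at 9.40, stood above all other pools, which ran from 8.77 to 9.06. Over the 7 beta genes the difference ran from -0.08 (Psmb3) to 0.13 (Psmb1) under quercetin in wild-type mice and from -0.13 (Psmb3) to 0.07 (Psmb1) in POR-null mice.

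The immunoproteasome subunits Psmb8, Psmb9 and Psmb10 take the places of Psmb5, Psmb6 and Psmb7 in immune cells and in cells under interferon. Psmb8 read 9.59, 9.24 and 9.47 in wild-type control, 9.21, 9.33 and 9.54 in wild-type quercetin, 9.62, 9.43 and 9.34 in POR-null control and 9.24, 9.52 and 9.20 in POR-null quercetin. Psmb9 read 8.77, 8.59 and 8.69, then 8.42, 8.67 and 8.78, then 8.89, 8.69 and 8.33, then 8.57, 8.71 and 8.22 in the same order. Psmb10 read 10.68, 10.38 and 10.52, then 10.40, 10.54 and 10.55, then 10.65, 10.54 and 10.40, then 10.45, 10.54 and 10.26. All groups overlap for each gene, and within a group the same pool tends to be high or low for all of them. Averaged over genotypes, quercetin minus control was -0.11 ± 0.08 for Psmb8, -0.10 ± 0.10 for Psmb9 and -0.07 ± 0.07 for Psmb10 (SE, 6 pools against 6), with limma adjusted p of 0.785, 0.848 and 0.842.

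The difference between each immunoproteasome subunit and the subunit it replaces was centred over the 12 pools, which leaves shifts between pools and no comparison of levels. Psmb8 minus Psmb5 was 0.08 ± 0.21 in wild-type control, -0.03 ± 0.20 in wild-type quercetin, 0.03 ± 0.14 in POR-null control and -0.08 ± 0.14 in POR-null quercetin (mean ± SD, n = 3 pools). For Psmb9 minus Psmb6 the group means ran from -0.06 to 0.08 with SDs of 0.12 to 0.24. For Psmb10 minus Psmb7 they ran from -0.06 to 0.08 with SDs of 0.04 to 0.15. T cells and other leukocytes carry these subunits, and 13 of 14 listed T cell markers were measured, 2 of them under the 25th percentile of probe sets. Their mean deviation was -0.23 to -0.11 in wild-type control, 0.04 to 0.16 in wild-type quercetin, 0.03 to 0.16 in POR-null control and -0.10 to 0.11 in POR-null quercetin, and their part in the immunoproteasome values was not tested.

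The cap ATPases, Psmc1 to Psmc6, form the ring that unfolds substrates. All 6 were lower under quercetin in POR-null mice, with a median of -0.05, and all 6 were lower by genotype on quercetin, with a median of -0.10. By genotype on quercetin all 7 assembly chaperones and all 3 immunoproteasome subunits were lower too. So were 8 of 11 other cap subunits, 5 of 7 beta genes and 3 of 4 activators or inhibitors. Under quercetin in POR-null mice all 3 immunoproteasome subunits were lower. So were 9 of 11 other cap subunits, 5 of 7 chaperones, 3 of 4 activators or inhibitors and 4 of 7 beta genes. Under quercetin in wild-type mice the ATPases ran from -0.07 (Psmc6) to 0.09 (Psmc4), with 2 higher, 3 lower and 1 at 0. Psmc3 had the largest genotype difference on the control diet, -0.14 ± 0.12 (SE; limma adjusted p = 0.900), from pools at 8.48, 8.40 and 8.76 in wild-type and 8.60, 8.50 and 8.13 in POR-null mice. POR-null control pool 3 is the lowest of all 12 for Psmc3. Psmc6, which carries the antioxidant core upstream, had an average quercetin effect of -0.07 ± 0.06 (SE; limma adjusted p = 0.786). A dimmer probe set of Psmc6 gave 0.21 ± 0.10 under quercetin in wild-type mice (SE; limma adjusted p = 0.571). The probe set used gave -0.07 ± 0.08 there (SE), and the dimmer one averaged 4.37.

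The other cap subunits include ubiquitin receptors, the scaffold of the base and the lid with its deubiquitinase. Psmd7, a lid subunit that pairs with the deubiquitinase Psmd14, had the widest spread of any part, an SD within groups of 0.27. It read 6.07, 5.40 and 5.97 in wild-type control, 5.70, 6.17 and 6.00 in wild-type quercetin, 6.05, 5.92 and 5.74 in POR-null control and 5.30, 5.86 and 5.64 in POR-null quercetin. The lowest pools, 5.30 and 5.40, are in different groups, and all groups overlap. POR-null minus wild-type on quercetin was -0.36 ± 0.18 (SE; 95% confidence interval -0.73 to 0.02; limma adjusted p = 0.997), quercetin minus control in POR-null mice was -0.30 ± 0.18 (limma adjusted p = 0.995), and the interaction was -0.45 ± 0.25 (limma adjusted p = 0.956).

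Psmd14, the deubiquitinase, and Psmd13, a lid subunit, had the smallest p values of the average genotype effect. Psmd14 read 8.78, 8.56 and 8.69 in wild-type control, 8.57, 8.71 and 8.61 in wild-type quercetin, 8.63, 8.65 and 8.39 in POR-null control and 8.42, 8.53 and 8.53 in POR-null quercetin. On quercetin all 3 POR-null pools lay below all 3 wild-type pools, and on the control diet the ranges overlapped. Its average genotype effect was -0.13 ± 0.06 (SE, 6 pools against 6; limma adjusted p = 0.996). Psmd13 read 8.27, 8.37 and 8.72, then 8.39, 8.28 and 8.24, then 8.30, 8.43 and 8.06, then 8.31, 8.09 and 8.06 in the same order of groups. Wild-type control pool 3 was the highest of the 12 for Psmd13 and also had the highest smooth muscle score, whose part in the difference was not tested. Its average genotype effect was -0.17 ± 0.09 (SE; limma adjusted p = 0.996).

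Psmd6, another lid subunit, varied little, with an SD within groups of 0.06. It read 8.10, 8.04 and 8.09 in wild-type control, 8.17, 8.17 and 8.16 in wild-type quercetin, 8.17, 8.25 and 8.03 in POR-null control and 8.03, 8.07 and 8.06 in POR-null quercetin. The wild-type quercetin pools lay above the wild-type control pools and above the POR-null quercetin pools without overlap. By genotype on quercetin the difference was -0.11 ± 0.07 (SE; limma adjusted p = 0.997). A dimmer probe set of Psmd6 gave -0.66 ± 0.12 for that comparison (SE; limma adjusted p = 0.373). By genotype on the control diet it gave -0.32 ± 0.12 (SE; limma adjusted p = 0.727), against 0.07 ± 0.07 (SE) for the one used. The probe sets of Psmd6 therefore disagree in size and, on the control diet, in sign. For Psmd11, also of the lid, quercetin minus control in wild-type mice was 0.12 ± 0.09 (SE; limma adjusted p = 0.710). For Psmd8, POR-null minus wild-type on the control diet was 0.08 ± 0.08 (SE; limma adjusted p = 0.908). Psmd12, a lid subunit with the antioxidant core upstream, was at -0.06 ± 0.09 under quercetin in wild-type mice, and Psmd1, a scaffold of the base, was at 0.05 ± 0.11 under quercetin in POR-null mice (SE). The other members of this group, Psmd2, Psmd3 and Psmd4, had differences between -0.13 and 0.09 in the 4 comparisons of 3 pools against 3.

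Activators open the gate without ATP, and Psmf1 encodes an inhibitor. Psme1, an interferon-inducible activator subunit, read 10.13, 9.94 and 10.09 in wild-type control, 9.94, 10.06 and 10.24 in wild-type quercetin, 10.13, 10.14 and 10.05 in POR-null control and 9.96, 10.04 and 10.04 in POR-null quercetin. In POR-null mice the quercetin pools lay just below the control pools, a difference of -0.09 ± 0.09 (SE; limma adjusted p = 0.995). Its partner Psme2 shares its probe set with Psme2b, so it is not among the members.

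Psme3, a nuclear activator, read 6.67, 6.71 and 6.39, then 6.73, 6.73 and 6.67, then 6.70, 6.78 and 6.46, then 6.69, 6.69 and 6.67 in the same order of groups. Pool 3 of either control group was low, and the average quercetin effect was 0.08 ± 0.07 (SE; limma adjusted p = 0.820). Psme4, a large single-chain activator, read 8.01, 7.96 and 7.84, then 7.91, 7.74 and 7.97, then 8.14, 8.00 and 7.89, then 7.93, 7.82 and 7.90, with an average quercetin effect of -0.10 ± 0.06 (SE; limma adjusted p = 0.746). Psmf1 read 7.91, 7.75 and 7.70, then 7.82, 7.92 and 7.93, then 7.79, 7.85 and 7.88, then 7.73, 7.87 and 7.75. Its quercetin difference was 0.10 ± 0.08 in wild-type and -0.06 ± 0.08 in POR-null mice (SE), with an interaction of -0.16 ± 0.11 (limma adjusted p = 0.956). The groups overlap for Psme3, Psme4 and Psmf1 in each of the 4 simple comparisons.

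The assembly chaperones build the rings (Psmg1 to Psmg4) and the base of the cap (Psmd5, Psmd9 and Psmd10). Psmg3 had the smallest p of any part under quercetin in wild-type mice. Its pools read 6.02, 6.09 and 5.85 in wild-type control, 6.25, 6.30 and 5.94 in wild-type quercetin, 6.01, 6.17 and 6.04 in POR-null control and 6.23, 6.21 and 5.92 in POR-null quercetin. Pool 3 of each quercetin group reads with the controls, so the groups overlap, and the difference in wild-type mice was 0.18 ± 0.11 (SE; limma adjusted p = 0.676). Psmg1 was -0.21 ± 0.12 by genotype on quercetin (SE; limma adjusted p = 0.997), where POR-null quercetin pool 1 at 6.04 was the lowest of the 12 pools. Psmg2 was 0.15 ± 0.09 on average under quercetin (SE; limma adjusted p = 0.719). Psmd5 was 0.16 ± 0.13 by genotype on the control diet (SE; limma adjusted p = 0.882), with wild-type control pools spread from 6.59 to 7.18. Psmg4 was 0.09 ± 0.09 in that comparison (SE). Psmd9 was -0.09 ± 0.06 and Psmd10 -0.12 ± 0.08 in the average genotype effect (SE), and neither passed the test.

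**Figure D2:**
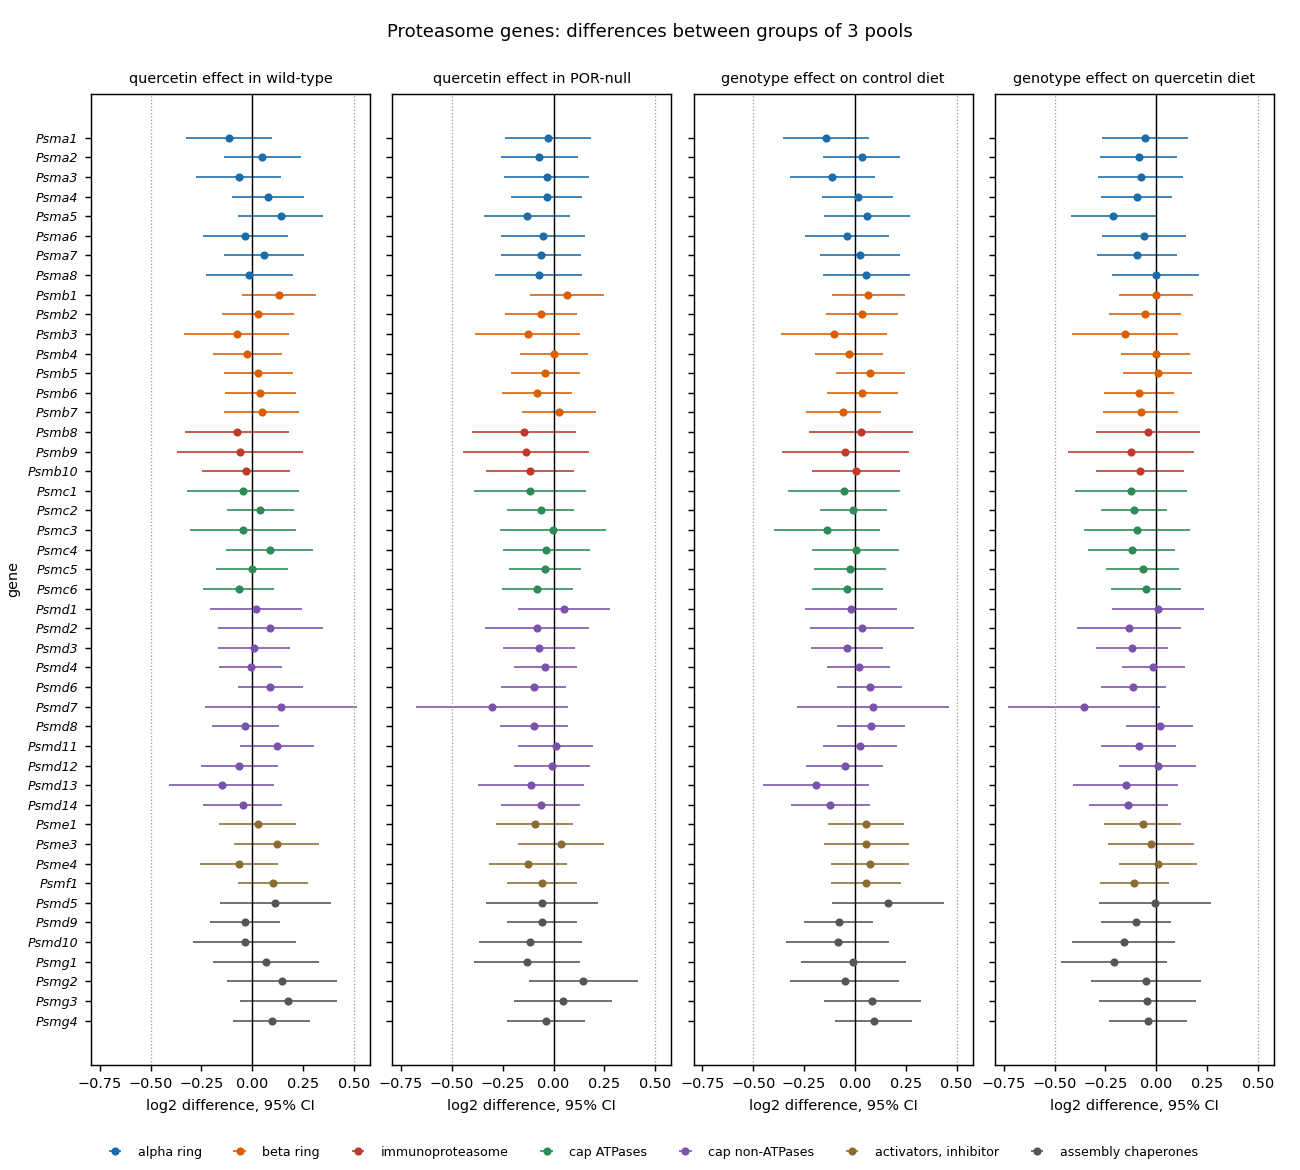
Log2 difference of each of the 46 parts (points, coloured by role) with its 95% confidence interval (bars) in the 4 comparisons of 3 pools against 3. Dotted lines mark 0.5 log2 units on either side of 0. In the POR-null quercetin comparison and in the genotype comparison on quercetin most points lie left of 0, 38 and 40 of 46, while each interval crosses 0.

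The directions of the 46 parts were uneven in the comparisons that hold the POR-null quercetin group. Under quercetin in wild-type mice 25 parts were higher and 20 lower, with a median of 0.02, and 42.3% of all genes were lower. Under quercetin in POR-null mice 8 were higher and 38 lower, with a median of -0.06, and 49.8% of all genes were lower. By genotype on the control diet 25 were higher and 21 lower, with a median of 0.01, and 46.7% of all genes were lower. By genotype on quercetin 5 were higher and 40 lower, with a median of -0.08, and 53.7% of all genes were lower. In the interaction 7 were higher and 38 lower (median -0.07), against 54.2% of all genes lower. In the average quercetin effect 14 were higher and 31 lower (median -0.02, 43.8% of all genes lower), and in the average genotype effect 10 were higher and 36 lower (median -0.04, 50.6% of all genes lower). These comparisons share groups of pools with each other, and the parts vary together from pool to pool, so their directions are not separate observations. A median of -0.08 is 1.06-fold. Scaling turned the sign of the medians near 0: with each array centred on its median, the median of the parts was -0.01 for quercetin in wild-type mice and -0.01 for genotype on the control diet, and with quantile normalization it was 0.01 for the average quercetin effect.

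Few parts separated the groups. Under quercetin in wild-type mice 2 of 46 parts (4.35%), Psma7 and Psmd6, were higher in every quercetin pool than in any control pool, as were 6.85% of all genes, and 0 were lower in that way, against 4.91%. Under quercetin in POR-null mice 2 (4.35%), Psmd8 and Psme1, were lower without overlap, against 4.78% of genes, and 0 higher, against 4.2%. By genotype on the control diet 0 were higher and 0 lower, against 5.25% and 4.53%. By genotype on quercetin 5 (10.9%), Psma2, Psmb7, Psmc2, Psmd6 and Psmd14, were lower in every POR-null pool, against 5.54% of genes, and 0 higher, against 3.81%.

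A single pool carried much of the variation. POR-null control pool 3 was the lowest of the 12 for 18 of the 46 parts, and for 17 of the 32 parts of the rings and the cap, while it was the lowest for 8.89% of all genes. It was the highest for 0 of 46 parts. The mean deviation of the ring and cap genes was -0.13 in it, against -0.07 to 0.08 in the other pools. The smooth muscle score of that pool was -0.23 and its enterocyte score was 0.12, and the part of cell makeup in its low values was not tested. Without that pool the median of the 46 parts was -0.12 for quercetin in POR-null mice, 0.07 for genotype on the control diet, -0.13 for the interaction and -0.01 for the average genotype effect, with 0 of 46 parts called by limma in each. The size of each of these medians changed by over 1.5 times with 1 pool. Other single pools moved the smaller medians. Without wild-type control pool 2 the median was -0.02 for quercetin in wild-type mice and -0.04 for genotype on the control diet, each with the sign turned. Without POR-null control pool 2 it was -0.03 for quercetin in POR-null mice. The median of the average quercetin effect was -0.05 without POR-null control pool 3, -0.005 without POR-null control pool 1 or pool 2, and 0.003 without the 3 arrays highest in smooth muscle markers. The median by genotype on quercetin lay between -0.10 and -0.06 under every alternative run, single pools left out included. Not all of these runs could move it. Leaving out 1 control pool cannot, since this comparison uses the quercetin groups only. Nor can the variance model, the replicate block, the probe sets tested or a fit of the compared arrays alone.

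The parts of the rings and the cap varied together between pools of the same group. With group means removed, the mean Pearson correlation over pairs of genes was 0.49 in the alpha ring, 0.46 among cap ATPases, 0.38 among the other cap subunits and 0.13 in the beta ring, against 0.005 over pairs of all 12393 genes. It was 0.87 for the 3 immunoproteasome subunits, 0.20 for the activators and inhibitor and 0.14 for the assembly chaperones. Over the 32 ring and cap genes it was 0.35. These are descriptions over 12 pools that share a normalization, and the low POR-null control pool 3 is among them. Against the mean of the other ring and cap genes, 23 of the 32 had a correlation over 0.5, led by Psma6 at 0.92 and Psmd11 at 0.92. Psmd8, a lid subunit, went against the rest at -0.55, and Psmb2 stood at -0.07. The immunoproteasome subunits varied with the ring and cap genes too, at 0.52 for Psmb8, 0.67 for Psmb9 and 0.63 for Psmb10. Of the chaperones, Psmd10 stood at -0.46 and Psmg2 at 0.67, and the inhibitor Psmf1 stood at -0.11. The parts were about as steady as other genes, with a median SD within groups of 0.11 (range 0.05 to 0.27), against 0.12 over all genes.

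**Figure D3:**
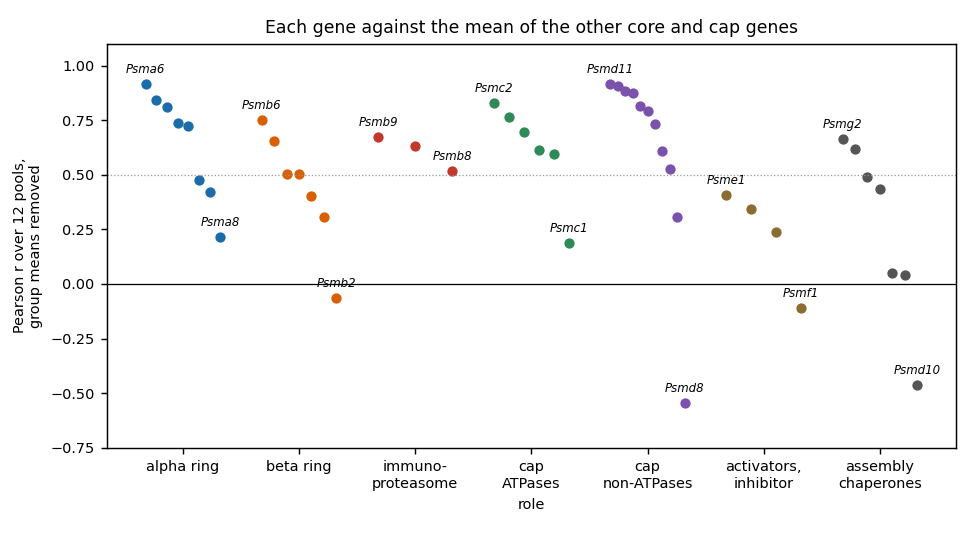
Pearson correlation of each part with the mean of the other ring and cap genes over the 12 pools after group means were removed (vertical axis), by role (horizontal axis), with the highest and lowest gene of each role named and a dotted line at 0.5. Of 32 ring and cap genes, 23 lie above the line, and Psmd8 at -0.55 is the lowest point.

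Among the 3 immunoproteasome genes r was 0.82 to 0.90, and with the TAP genes it was 0.66 to 0.90, where no pair passed the adjusted test. Tap1 and Tap2 encode both chains of the peptide transporter, and Tap1 shares the upstream stretch printed above with Psmb9. Tap1 read 8.69, 8.53 and 8.74 in wild-type control, 8.63, 8.85 and 8.65 in wild-type quercetin, 9.11, 8.71 and 8.41 in POR-null control and 8.78, 8.97 and 8.43 in POR-null quercetin. Pool 3 of both POR-null groups was low for Tap1 as for Psmb9, and pool 1 of POR-null control was high for both. Relations were computed for 57 gene pairs with an exact permutation of pools within groups (1296 arrangements, two-sided). Psmb9 and Psmb10 had r = 0.90 (p = 0.000772, the smallest the permutations can give; Benjamini-Hochberg adjusted p = 0.0440) and rho = 0.90 (permutation p = 0.000772, adjusted p = 0.0440) over 12 pools, and r = 0.85 without the 2 pools farthest from the median. This was the 1 pair of 57 that passed.

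Psmb9 and Tap1 had r = 0.88 (exact permutation p = 0.0131, adjusted p = 0.0831) and rho = 0.78 (exact permutation p = 0.0309, adjusted p = 0.117), with r = 0.73 without the 2 farthest pools. Psmb10 and Tap2 had r = 0.90 (exact permutation p = 0.00309, adjusted p = 0.0586) and rho = 0.88 (exact permutation p = 0.00309, adjusted p = 0.0660), with r = 0.86 without 2 pools. Psmb8 and Psmb9, neighbours on chromosome 17, had r = 0.82 (exact permutation p = 0.00926, adjusted p = 0.0754) and rho = 0.84 (exact permutation p = 0.00386, adjusted p = 0.0660). Psmb10, on another chromosome, followed Psmb8 with r = 0.88 (exact permutation p = 0.00617, adjusted p = 0.0733) and rho = 0.86 (exact permutation p = 0.00617, adjusted p = 0.0704). Psmb8 was the least close to the TAP genes, with r = 0.66 for Tap1 (exact permutation p = 0.0363, adjusted p = 0.157) and rho = 0.70 (exact permutation p = 0.0301, adjusted p = 0.117), and r = 0.68 for Tap2 (exact permutation p = 0.0417, adjusted p = 0.158) and rho = 0.69 (exact permutation p = 0.0293, adjusted p = 0.117). Without 2 pools those r were 0.73 and 0.74. Psmb9 and Tap2 had r = 0.89 (exact permutation p = 0.00309, adjusted p = 0.0586), and Psmb10 and Tap1 had r = 0.82 (exact permutation p = 0.00772, adjusted p = 0.0733). Their rho was 0.90 (exact permutation p = 0.00463, adjusted p = 0.0660) and 0.75 (exact permutation p = 0.0224, adjusted p = 0.117), and without 2 pools their r was 0.74 and 0.77. Without 2 pools r was 0.76 for Psmb8 and Psmb9 and 0.90 for Psmb8 and Psmb10. Against the MHC class I genes the correlations of these subunits were smaller, from -0.04 to 0.23 for H2-K1 and H2-D1. The H2-K1 probe set is of a cross-hybridising type. High values were not particular to the TAP genes. For Psmb8, Psmb9 and Psmb10 in turn, r was -0.69, -0.79 and -0.68 with Ifngr2 and 0.77, 0.58 and 0.64 with Irf8. With Tapbp r was 0.45, 0.73 and 0.73, and with the activator gene Psme1 it was 0.79, 0.54 and 0.58. With B2m, Erap1, Irf1, Irf9 and Ifngr1 r ran from -0.20 to 0.47. None of these pairs passed the adjusted test. The pairs of an immunoproteasome subunit and its constitutive counterpart were not alike in r. Psmb8 and Psmb5 had r = 0.12 (exact permutation p = 0.793, adjusted p = 0.944) and rho = 0.16 (exact permutation p = 0.693, adjusted p = 0.921), with r = 0.07 without 2 pools. Psmb9 and Psmb6 had r = 0.47 (exact permutation p = 0.349, adjusted p = 0.686) and rho = 0.38 (exact permutation p = 0.383, adjusted p = 0.712), with r = -0.16 without 2 pools, so the sign rests on those pools. Psmb10 and Psmb7 had r = 0.74 (exact permutation p = 0.0170, adjusted p = 0.0968) and rho = 0.71 (exact permutation p = 0.0247, adjusted p = 0.117), with r = 0.82 without 2 pools.

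**Figure D4:**
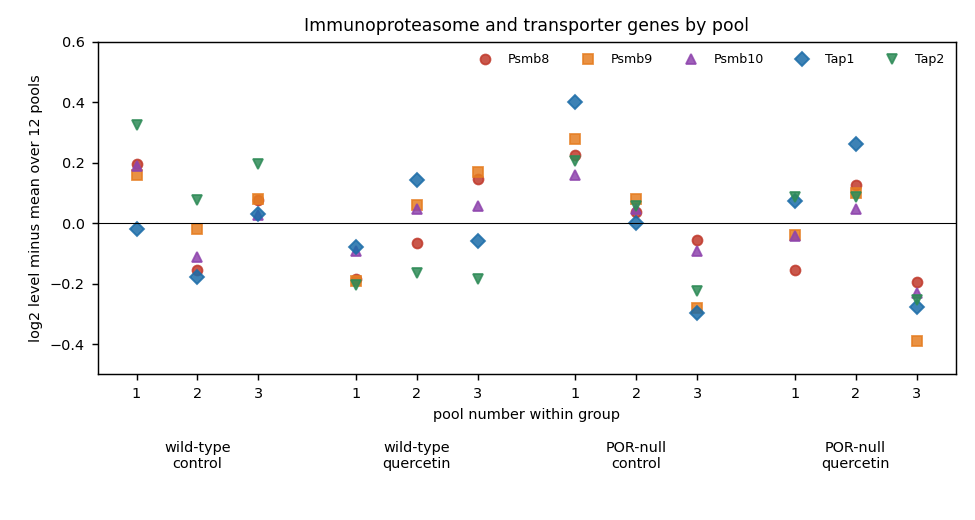
Log2 level of Psmb8, Psmb9, Psmb10, Tap1 and Tap2 in each of the 12 pools (horizontal axis, by group) minus the gene's mean over the pools (vertical axis). In POR-null control pool 1 all markers lie above 0, in POR-null control pool 3 all lie below it, and in the wild-type quercetin pools 2 and 3 they lie on both sides. POR-null quercetin pool 3 is the lowest for Psmb8, Psmb9, Psmb10 and Tap2.

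Genes that work with the proteasome gave 0 calls as well. Of a list of shuttle factors, ubiquitin genes, deubiquitinases and regulators 18 genes were measured, and 0 passed limma's adjusted test in each of the 7 comparisons. Rad23b, a shuttle that brings ubiquitinated proteins to the cap, read 7.31, 7.41 and 7.76 in wild-type control and 7.96, 7.93 and 7.82 in wild-type quercetin, where the quercetin pools lie above the control pools. Its difference was 0.41 ± 0.12 (SE; limma adjusted p = 0.374). In POR-null mice it read 7.56, 7.95 and 7.73 in control and 7.85, 7.64 and 7.95 in quercetin, which overlap.

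Nfe2l2, the gene of NRF2, read 9.12, 9.20 and 9.05 in wild-type control, 9.32, 9.15 and 8.98 in wild-type quercetin, 8.87, 9.05 and 9.09 in POR-null control and 8.92, 8.81 and 8.81 in POR-null quercetin. Its POR-null minus wild-type difference on quercetin was -0.30 ± 0.10 (SE; limma adjusted p = 0.978), with no overlap of the pools. Pomp, the maturation factor of the core, was -0.12 ± 0.05 in the average genotype effect (SE; limma adjusted p = 0.994). Uchl5, a deubiquitinase of the cap, was -0.19 ± 0.10 under quercetin in POR-null mice (SE; limma adjusted p = 0.995), and Usp14, the other cap-bound deubiquitinase, was 0.24 ± 0.14 under quercetin in wild-type mice (SE; limma adjusted p = 0.653). Of 18 partner genes, 8 were higher and 10 lower under quercetin in each genotype, 6 were higher, 11 lower and 1 at 0 by genotype on the control diet, and 7 were higher and 11 lower by genotype on quercetin. The ones with the next smallest p were Nploc4 (-0.14 under quercetin in wild-type mice), Ube3c (0.09 under quercetin in POR-null mice), Nfe2l1, the gene of NRF1 (0.13 by genotype on the control diet), Ubqln1 (-0.13 by genotype on quercetin), Txnl1 (0.36 in the interaction) and Ecpas (-0.14 in the average genotype effect).

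Of 16 listed genes of antigen processing and interferon signalling 12 were measured, and 0 passed limma's adjusted test in each comparison. Tap2 read 8.07, 7.82 and 7.94 in wild-type control against 7.54, 7.58 and 7.56 in wild-type quercetin, without overlap. The difference was -0.38 ± 0.12 (SE; limma adjusted p = 0.374). In POR-null mice Tap2 read 7.95, 7.80 and 7.52 in control and 7.83, 7.83 and 7.49 in quercetin, and the test of the difference between genotypes gave 0.34 ± 0.16 (SE; limma adjusted p = 0.956). The immunoproteasome genes beside it on chromosome 17 had wild-type quercetin differences of -0.07 ± 0.12 for Psmb8 and -0.06 ± 0.15 for Psmb9 (SE). Irf8 was 0.27 ± 0.13 and Irf1 0.25 ± 0.15 under quercetin in wild-type mice (SE), transcription factors of the interferon response, and limma's adjusted p was 0.591 and 0.654. Of the 12 genes, 6 were higher and 6 lower under quercetin in wild-type mice, 3 higher and 9 lower in POR-null mice, 8 higher and 4 lower by genotype on the control diet and 6 higher and 6 lower on quercetin. In POR-null mice the smallest p values under quercetin were those of Ifngr2, an interferon gamma receptor chain (-0.19 ± 0.11), the peptide-trimming Erap1 (-0.11 ± 0.07) and the class I gene H2-K1 (0.11 ± 0.09, all SE). By genotype on quercetin they included H2-K1 (0.14 ± 0.09) and Tapbp, which loads peptides (0.12 ± 0.08, both SE). In the average genotype effect they were Tapbp (0.08 ± 0.06), B2m, the light chain of class I (0.06 ± 0.06), and H2-D1 (-0.08 ± 0.08, all SE).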

How the data were processed

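Each of 12 RNA pools was hybridised to 1 Affymetrix 430A array. The authors deposited a log2 intensity per probe set, and no normalization was added. MAS5 and RMA appear in the submitters' processing notes with no version or role, so it is unknown which gave these values. Of 22690 probe sets, 64 controls were left out. The platform annotation gave 1 symbol to 20380 of them, several symbols to 691 and no symbol to 1555. For each gene the brightest probe set that names it alone was used, and one of the cross-hybridising type only where no other existed.

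limma 3.58.1 (R 4.3.3) fitted 4 group means over the 12 arrays (8 residual, 6.75 prior degrees of freedom). It tested 7 contrasts, with Benjamini-Hochberg adjustment over 22626 probe sets. The same steps were tested on simulated data. Genes were named from the 4 members with the smallest p in each direction of each contrast, the catalytic pairs and the activators and inhibitor. Each partner list added 3 genes per contrast, and others were chosen after their values were seen. Not every value of these genes is printed. In the interaction the 4 higher members were Psma1 (0.09 ± 0.14), Psmd12 (0.06 ± 0.12), Psmc3 (0.04 ± 0.17) and Psma3 (0.03 ± 0.14, all SE). Among the 4 lower ones, Psmd6 was at -0.19 ± 0.11 (SE). The members, lists, tests and alternatives were chosen with earlier results of these data known. Same-numbered pools were not treated as pairs: the labels name no shared animal or day. Sequences and coordinates are from RefSeq, GRCm38.p6; Python 3.11.15, scipy 1.17.1 and matplotlib 3.10.9 did the rest.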

Additional observations from a re-analysis of the deposited data

How the results depend on the processing

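With 3 pools a group, the confidence intervals held most differences of the parts within 1.41-fold either way. That band was chosen and is not a limit of detection, and smaller differences of the parts may have been missed. For the partner gene Nfe2l2, by genotype on quercetin, the difference of -0.30 had a confidence interval of -0.51 to -0.10. Nfe2l2 did not pass the adjusted test. Of the 46 parts, 0 were called by limma under each of the 24 alternatives, which were normalization, dim filter, variance model, array weights, choice of probe set, probe sets tested, arrays fitted, segment covariate, replicate block and pools left out. The lowest adjusted p of a part in any of them was 0.0891, with the dimmest probe set of each gene. Over 31 named genes and 5115 alternative values, the sign turned in 389, none of them called. Many of these values could not differ from the reported ones. The dim filter, variance model, replicate block, probe sets tested and arrays fitted leave each difference as it was. So does leaving out a pool that a comparison does not use. The share of turned signs is therefore no measure of how steady the signs are. The number of parts at an unadjusted p under 0.05, 0 in each comparison as reported, is given next where it was above 0, and the cause was not tested. For quercetin in wild-type mice it was 2 with quantile normalization (Psmb1 and Psmd11), 1 with the dimmest probe set and 2 with the segment covariate (Psme3 and Psmg3). In POR-null mice it was 1 with the arrays compared alone, 1 with the mean of probe sets and 1 with the dimmest. By genotype on the control diet it was 1 with the dimmest probe set and 1 with the segment covariate. By genotype on quercetin it was 3 with the dimmest probe set and 1 each with the arrays compared alone, 1 probe set per gene, the mean of probe sets and the segment covariate. In the interaction it was 1 each with the mean of probe sets, the dimmest and the segment covariate. In the average quercetin effect it was 1 each with quantile normalization, the dimmest and the segment covariate. In the average genotype effect it was 1 with quantile normalization (Psmd13), 2 with the mean of probe sets and 2 with the dimmest. Leaving out 1 pool at a time gave 0 to 1 for quercetin in wild-type mice, 0 to 2 in POR-null mice, 0 to 1 by genotype on the control diet, 0 to 3 on quercetin, 0 to 3 in the interaction, 0 to 1 in the average quercetin effect and 0 to 3 in the average genotype effect. The counts of 3 came without wild-type quercetin pool 1, POR-null quercetin pool 2 or wild-type control pool 2. Group medians also moved. The beta ring median was 0.078 for quercetin in wild-type mice with quantile normalization, and -0.023 by genotype on the control diet and -0.067 in the average genotype effect with the dimmest probe set. The activator median was 0.12 by genotype on the control diet and -0.18 in the interaction with the dimmest probe set, and -0.037 in the interaction without the 3 arrays highest in smooth muscle markers. With 1 pool left out, the alpha ring median for quercetin in POR-null mice ran from -0.15 (without POR-null control pool 3) to -0.016, the cap non-ATPase median by genotype on the control diet from -0.067 (without wild-type control pool 2) to 0.068, and the assembly chaperone median from -0.053 to 0.068 by genotype on the control diet, -0.12 to -0.043 on quercetin and -0.18 to -0.030 in the interaction. The replicate number as a block gave 0 calls. It cannot change a difference or a median, because every group holds 1 pool of each replicate number, so only the spread could move. Same-numbered pools of different groups correlated between -0.12 and 0.20. A fit of the compared arrays alone gives no value for the interaction and the averages.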

Other observations

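The array holds 83 single-symbol probe sets for the 46 parts, and 37 of them, of 21 genes, were not used above. By limma 0 of the 37 were called in each of the 7 contrasts, and between 1 and 4 had an unadjusted p under 0.05. The one with the lowest adjusted p belonged to Psmd6, the lid subunit, and is described because of it, after its values were seen. Its log2 level was 5.35, 5.49 and 5.46 in the wild-type control pools, 5.39, 5.55 and 5.30 in wild-type quercetin, 5.30, 5.18 and 4.85 in POR-null control and 4.96, 4.54 and 4.75 in POR-null quercetin. All 6 POR-null pools lay at or below all 6 wild-type pools. The average genotype effect on it was -0.49 ± 0.087 (SE; limma adjusted p = 0.0891), and by genotype on quercetin it was -0.66 ± 0.12 (SE; limma adjusted p = 0.373). The probe set used above for Psmd6 gave -0.02 ± 0.05 and -0.11 ± 0.07 (SE) for the same contrasts, so the 2 probe sets of this gene disagree. Other probe sets of Psme3 and Psmd11 differed by 0.29 ± 0.12 under quercetin in wild-type mice and by 0.34 ± 0.13 under quercetin in POR-null mice (SE), with limma adjusted p of 0.486 and 0.995.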
